A study of Mus musculus with 32 samples.

Results

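Toll-like receptors are the membrane receptors with which cells sense microbial products, and *Myd88* encodes the adaptor protein that most of them share. The genes described here are *Tlr1* to *Tlr9* and *Myd88*. They were chosen by name: every non-control probe whose gene name in the scanner files is one of these was taken, which gave 10 of 34821 gene names and 14 of 55681 probes. The mRNA of mouse liver cells and tumor cells was measured on 2-colour 60-mer arrays, with 4 samples in each of 8 groups, 32 in all. Host cells came from male Balb/c mice of 6 to 8 weeks. The TME (tumor microenvironment) groups came from mice whose spleens had been inoculated with C26 cells, a colon carcinoma line of the same strain, and the control groups from mice given PBS. Endothelial, Ito (hepatic stellate) and Kupffer cells were isolated 14 days later by collagenase perfusion and Percoll gradients, and cultured for at most 24 hours. The endothelial and Ito fractions both held Kupffer cells at the gradient step, and adherence was then used to separate these. The remaining groups were CRC (colorectal cancer) primary cells and tumor liver metastasis cells, whose isolation is not given in the sources used here. The study calls the 4 samples of a group biological replicates. The sources do not say whether they came from separate mice or pools, so p-values measure the spread between these samples.

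Each receptor pairs a leucine-rich ectodomain with a cytoplasmic TIR domain. TLR2, as a dimer with TLR1 or TLR6, binds lipoproteins, TLR4 binds lipopolysaccharide and TLR5 binds flagellin, all at the cell surface. TLR3 binds double-stranded RNA, TLR7 senses single-stranded RNA and its breakdown products, and TLR9 binds CpG DNA. These and TLR8 lie in endosomes. MyD88 carries the signal of every receptor named here except TLR3 to the IRAK kinases and NF-kB. Kupffer cells are the resident macrophages of the liver sinusoids and meet bacterial products arriving from the gut.

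Values are log2 intensities of the authors' normalized table, and a difference of 1 is a 2-fold change. Each value was also marked by whether the scanner software called its spot well above background. Control cells and metastasis cells were labelled with Cy3, TME cells and primary cells with Cy5, and same-numbered samples of a pair shared an array. Dye and condition therefore cannot be told apart. Endothelial and Ito arrays lay on one slide and Kupffer and tumor arrays on another, so a difference between Kupffer cells and the other liver cells cannot be told apart from a slide difference. In the Ito and in the Kupffer set, array 4 stood apart. Their TME-minus-control differences correlated at -0.66 (Ito) and -0.60 (Kupffer) with the mean of the other 3 arrays over 17105 probes, where the other arrays gave 0.19 to 0.28 and 0.41 to 0.47. Results that involve these cells are therefore given with and without array 4, a choice made after the data were seen. TME Ito replicate 2 and control Kupffer replicate 3 had the fewest spots well above background of the liver channels, and a further setting also leaves them out. In the tumor group, arrays 1 and 4 correlated at -0.20 and -0.07 with the rest, against 0.64 and 0.64 for arrays 2 and 3.

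The labels were set against marker lists. The 10 Kupffer markers (among them *Clec4f*, *Vsig4* and *Csf1r*) were all well above background in all 6 liver cell groups, and their mean level per sample was 13.03 to 14.94 in control Kupffer cells, 12.78 to 14.5 in control Ito cells and 11.64 to 11.91 in control endothelial cells. The mean level of 11 stellate markers was 8.84 to 9.46 in control Ito cells and 10 to 10.42 in control endothelial cells, and 9 of the 11 had the higher mean in endothelial cells, of which 2 were called. The exceptions were *Rgs5* and *Lrat*, which makes the retinyl esters of stellate cells and was well above background in 2 of 4 control Ito and 1 of 4 control endothelial samples. Between the TME groups the list overlapped, at 8.86 to 10.43 in Ito and 9.54 to 9.65 in endothelial cells. The Ito samples are named here by their label. In each tumor group, 3 of the 10 Kupffer and 5 of 10 endothelial markers were on no sample well above background, *Clec4f* and *Stab2* among them, while *Csf1r* and *Kdr* were well above background in 8 of 8 tumor samples. Of the epithelial markers, *Krt18* and *Krt20* were well above background in 8 of 8 tumor samples and *Epcam* and *Cdh1* in 0 of 8. In bulk samples such as these, fewer cells of a type and less RNA per cell cannot be told apart.

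Among the cell surface receptors, *Tlr2* had its highest values in endothelial cells and its lowest in the tumor cells. The control endothelial samples read 14.33, 14.04, 13.95 and 14.35, in the order of replicates 1 to 4 used throughout, and the TME endothelial samples 14.68, 13.25, 14.76 and 14.73. Control Ito samples stood at 14.2, 14.21, 14.17 and 13.26 and TME Ito samples at 13.14, 11.79, 13.33 and 13.9. Control Kupffer samples gave 13.3, 13.3, 13.87 and 12.98 and TME Kupffer samples 12.8, 12.75, 12.87 and 13.17. The control endothelial and control Kupffer groups did not overlap, nor did the TME endothelial and TME Kupffer groups. In the tumor cells the probe was close to background: metastasis samples read 7.43, 3.27, 3.04 and 6.28, of which 2 were well above background, and primary samples 7.34, 3.93, 5.35 and 4.32, of which 3 were.

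*Tlr1*, a partner of *Tlr2*, was flat in endothelial cells and split in the other liver cells. It read 8.01, 7.99, 7.92 and 7.96 in control and 8.03, 8.54, 7.91 and 8.21 in TME endothelial samples. Control Ito samples gave 7.95, 7.77, 8.08 and 10.52 and TME Ito samples 10.36, 7.94, 10.24 and 7.99. Control Kupffer samples gave 9.29, 9.34, 9.2 and 11.05 and TME Kupffer samples 10.74, 10.92, 10.83 and 9.25. In both the Ito and the Kupffer cells, replicate 4 of the control group sat among the high TME samples and replicate 4 of the TME group among the low control samples. *Tlr6*, the other partner, showed the same placing of replicate 4: 10.06, 9.99, 10.16 and 11.58 in control Ito, 11.44, 9.98, 11.34 and 9.94 in TME Ito, 11.43, 11.43, 11.5 and 11.96 in control Kupffer and 11.81, 11.89, 11.77 and 11.48 in TME Kupffer samples.

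*Tlr4* was well above background in every sample. Its mean was 11.24 ± 0.21 (SD, n = 4) in control and 11.46 ± 0.07 in TME endothelial cells, 11.95 ± 0.44 and 11.55 ± 1.29 in the Ito groups, and 12.08 ± 0.36 and 12.34 ± 0.25 in the Kupffer groups. The wide spread of the TME Ito group came from replicate 2, at 9.67 against 11.72 to 12.44 for the others. Tumor samples spanned 10 to 10.79. *Tlr5* was well above background in 6 of 32 samples, 4 of them tumor samples, and no endothelial sample was among them, so no order of its levels is given.

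Of the endosomal receptors, *Tlr8* and *Tlr7* varied most between the liver cells. *Tlr8* stood at 5.05, 4.7, 4.97 and 5.02 in control endothelial samples and 5.65, 5.83, 5.27 and 5.49 in TME endothelial samples, with 3 of 4 and 4 of 4 well above background. In control Ito samples it gave 6.25, 6.59, 5.84 and 8.21, in TME Ito samples 8.19, 5.54, 8.04 and 5.96, in control Kupffer samples 8.12, 7.93, 7.52 and 9.34 and in TME Kupffer samples 9.4, 9.48, 9.38 and 7.81. No tumor sample was well above background, the measured values being 2.49 to 3.73. *Tlr8* was thus lowest among liver cells in the control endothelial group, and replicate 4 again sat with the opposite group in Ito and Kupffer cells.

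*Tlr7* read 9.15, 9.19, 9.15 and 9.13 in control endothelial samples, a spread of 0.02 (SD), and 10.15, 10.55, 9.84 and 10.09 in TME endothelial samples. The Ito samples gave 10.73, 10.75, 10.72 and 11.84 (control) and 11.91, 9.25, 11.72 and 10.76 (TME), and the Kupffer samples 11.71, 11.69, 10.73 and 12.23 (control) and 12.29, 12.3, 12.25 and 11.83 (TME). Every TME endothelial sample was above every control endothelial sample, and all 8 were below every Kupffer sample. *Tlr3* had means of 9.98 ± 0.29 and 9.9 ± 0.22 in control and TME endothelial cells, 9.76 ± 0.41 and 9.77 ± 0.8 in Ito cells, 10.74 ± 0.37 and 10.96 ± 0.12 in Kupffer cells, and 6.14 ± 0.35 and 5.92 ± 0.62 in metastasis and primary cells (SD, n = 4 each). *Tlr9* varied least over the 8 groups, from a mean of 9.98 ± 0.15 in primary cells to 10.62 ± 0.21 in control Kupffer cells.

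*Myd88* itself was well above background everywhere. Its values were 12.81, 12.52, 12.55 and 12.71 in control and 12.55, 12.06, 12.52 and 12.6 in TME endothelial samples, and 12.79, 12.79, 12.65 and 12.62 in control and 12.58, 12.66, 12.63 and 12.86 in TME Ito samples. Kupffer samples stood higher, at 13.18, 13.17, 12.99 and 13.36 (control) and 13.24, 13.22, 13.27 and 13.3 (TME). Metastasis samples read 10.49, 10.34, 9.91 and 10.76 and primary samples 10.71, 10.61, 10.28 and 10.07. The Kupffer groups lay above all other groups without overlap and the tumor groups below them, while the endothelial and Ito groups overlapped.

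**Figure D1:**
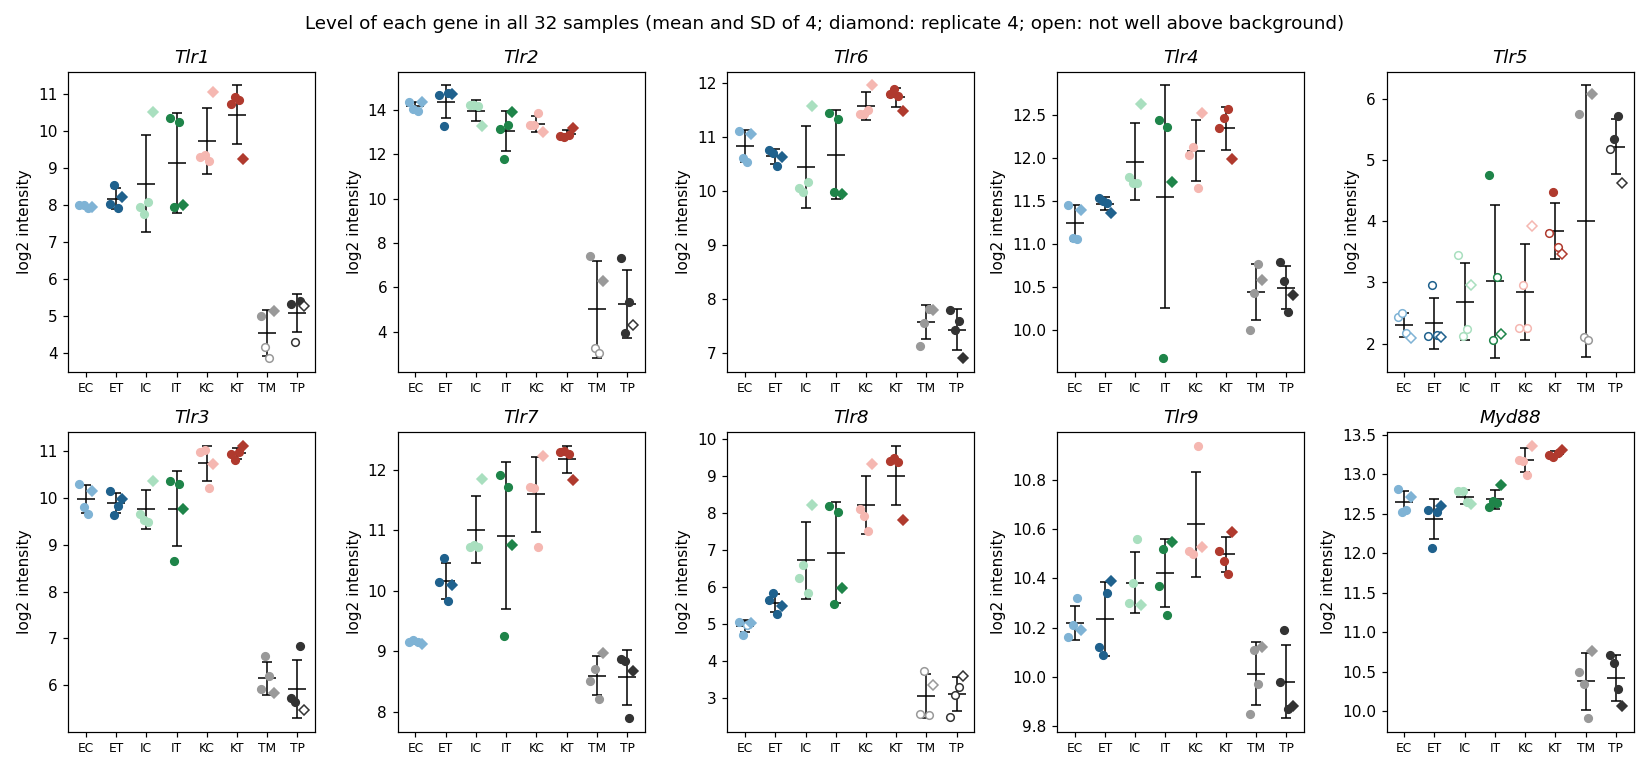
Log2 intensity (vertical axis) of each gene in each of the 32 samples, by group (EC and ET, control and TME endothelial; IC and IT, Ito; KC and KT, Kupffer; TM, liver metastasis cells; TP, primary cells). Bars are the mean and SD of 4, each panel has its own scale, open points are not well above background, diamonds are replicate 4, and in *Tlr1* and *Tlr8* the diamonds of the Ito and Kupffer groups sit with the opposite condition.

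A few probes matter for reading these values, because several genes have more than 1 and they do not all give the same result. The last 30 bases of each such 60-mer are shown 5′ to 3′, and capitals mark the polyadenylation hexamer AATAAA where it occurs. The *Tlr4* probe used here lies at chr4:66503470-66503529 (mm9, plus strand), and the second lies at chr4:66590077-66590136, 86607 bases further on. The *Tlr7* probe used lies at chrX:163742863-163742922 (minus strand), the second at chrX:163743146-163743205 and the last at chrX:163747214-163747273. The *Tlr8* probe used lies at chrX:163680628-163680685 (minus strand) and the second at chrX:163683356-163683415. The *Tlr2* probe lies at chr3:83640344-83640403 and the *Tlr1* probe at chr5:65316115-65316174, both on the minus strand. No exon annotation of this build was used here.
*Tlr4*, used: taacatccttttccttcatcattctcattt
*Tlr4*, second: acgaggcacgatattaatgctgtggattga
*Tlr7*, used: gttcaatgaAATAAAagcccagagaacttc
*Tlr7*, second: gttgtcatggctcagattggtgggaaatca
*Tlr7*, last: gtttggggcagcaagagacatggctcagtg
*Tlr8*, used: aaacacacagcttctccttacaatgaactg
*Tlr8*, second: tatactatacctgctgggttgcctgagtct
*Tlr2*: gggtaaatctgagaactgcAATAAAgtcct
*Tlr1*: agcatccattaatgttaagctggttaacca

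The *Tlr4* probes disagreed. RefSeq gives the gene a span of 19031 bases, shorter than the distance between them, and the second probe was designed to an Ensembl transcript. It was well above background in 23 of 24 liver samples but its control Kupffer minus control endothelial difference was -0.20, where the probe used gave 0.85, and neither was called. The *Tlr7* probe that lies 283 bases from the one used was higher in control Kupffer than in control endothelial cells by 2.95 (SE 0.80, adjusted p = 0.00769), against 2.44 for the one used. The last *Tlr7* probe was well above background in 10 of 32 samples. For *Tlr8*, the same difference was 3.23 (SE 0.72, adjusted p = 0.00149) by the second probe and 3.29 by the first.

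Whether the receptors or their adaptor changed in the tumor-bearing liver was asked by setting TME against control cells. With all arrays, 0 of 10 genes were called at an adjusted p under 0.05 (limma) in endothelial cells, where 1.14% of all probes were. The count was also 0 of 10 in Ito cells (0.289% of all probes) and in Kupffer cells (0.436%). At an unadjusted p under 0.05 the counts were 1, 0 and 0. The median difference over the 10 genes was 0.11, 0.02 and 0.24. No gene's change was called as different between cell types either, where 0.111%, 0.0808% and 0.00359% of all probes were for Ito against endothelial, Kupffer against endothelial and Kupffer against Ito.

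In endothelial cells the values of *Tlr7* and *Tlr8* were higher in the TME group on every array. *Tlr7* differed by 1.00, 1.37, 0.69 and 0.96 on arrays 1 to 4, a mean of 1.00 (SE 0.39, adjusted p = 0.391, limma). Its groups did not overlap (exact permutation test over the 4 and 4 samples, two-sided p = 0.0286, the smallest that this design allows, unadjusted). That test treats the samples as independent although they share arrays in pairs, and flipping the signs of the 4 array differences could give no p below 0.125. *Tlr8* differed by 0.60, 1.13, 0.31 and 0.47, a mean of 0.63 (SE 0.53, adjusted p = 1), and did not overlap either. These were 2 of 10 genes without overlap, where 13.0% of all probes had none. By the second *Tlr8* probe the array differences were 0.04, 1.73, 0.36 and 0.06, and the groups overlapped. With the probe used, the *Tlr8* difference ranged from 0.25 to 0.73 over 16 settings. The *Tlr7* call depended on the estimate of the spread, which in the fit of all 8 groups is shared with the Ito and Kupffer groups. Its adjusted p was 0.00858 with only the endothelial samples in the fit and 0.0228 by the methods' t-test. It was 0.00199 with array 4 of the Ito and Kupffer cells and both dim channels left out, where 3.62% of all probes were called. *Tlr8* was called with only the endothelial samples in the fit (adjusted p = 0.0454). The Kupffer marker list read 11.64 to 11.91 in control and 11.74 to 12.33 in TME endothelial samples, and a list of 10 neutrophil markers 5.13 to 5.7 and 6.59 to 8.1. The monocyte list read 5.67 to 5.96 and 6.78 to 7.72, the T and NK cell list 5.94 to 6.39 and 7.05 to 8.1, and the hepatocyte list 10.06 to 10.35 and 9.04 to 9.41. The endothelial list read 12.43 to 12.67 and 11.67 to 12.29, and the stellate list 10 to 10.42 and 9.54 to 9.65. The B cell list read 6.76 to 6.89 and 4.87 to 6.87. The lists not given here overlapped between control and TME endothelial samples. The part of the cells behind these lists in the *Tlr7* difference was not tested.

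In Ito and Kupffer cells, *Tlr1* and *Tlr8* differed by array in size and sign. *Tlr1* differed by 2.41, 0.17, 2.15 and -2.54 on the 4 Ito arrays and by 1.46, 1.58, 1.64 and -1.81 on the 4 Kupffer arrays. *Tlr8* differed by 1.94, -1.05, 2.19 and -2.24 in Ito and by 1.28, 1.55, 1.86 and -1.53 in Kupffer cells. Array 4 was negative for both genes in both cell types, and Ito array 2 was negative for *Tlr8* and close to 0 for *Tlr1*. Averaged over all arrays, *Tlr1* was 0.55 (SE 0.58, adjusted p = 0.83) in Ito and 0.72 (SE 0.58, adjusted p = 0.877) in Kupffer cells. *Tlr2* ran the other way, by -1.06, -2.42, -0.84 and 0.64 in Ito and -0.5, -0.55, -1 and 0.2 in Kupffer cells, and was not called in either (adjusted p = 0.715 and 0.98).

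Without array 4 of these cells, *Tlr1* was called in both. It was higher in TME than control Ito cells by 1.58 (SE 0.43, adjusted p = 0.0276), with 7.66% of all probes called, and in TME than control Kupffer cells by 1.56 (SE 0.43, adjusted p = 0.0457), with 3.85% called. With both dim channels left out too, 5 of 10 genes were called in Ito cells, all higher in TME: *Tlr1* (2.36), *Tlr8* (1.89), *Tlr6* (1.32), *Tlr7* (1.08) and *Tlr4* (0.66), where 12.3% of all probes were called. In Kupffer cells *Tlr1* (1.52) and *Tlr8* (1.39) were called, beside 4.86% of all probes. The Kupffer marker list moved with these genes. Without those arrays and channels, its median difference was 1.58 in Ito cells, with 3 of its 10 genes called higher, and 0.78 in Kupffer cells, with none called. The neutrophil list moved too: its median differences were 2.67 and 1.74, with 6 and 2 of 10 genes called higher. So did the T and NK cell list (2.76 and 1.11, 3 of 6 genes called higher in each) and the monocyte list (1.84 and 0.39, 2 and 1 of 3 called higher). On array 4, the control Ito sample read 7.91 for the neutrophil list against 4.9 to 5.41 for the other control samples, and the TME sample 5.41 against 7.14 to 8.89. The part of these cells in the receptor values was not tested.

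**Figure D2:**
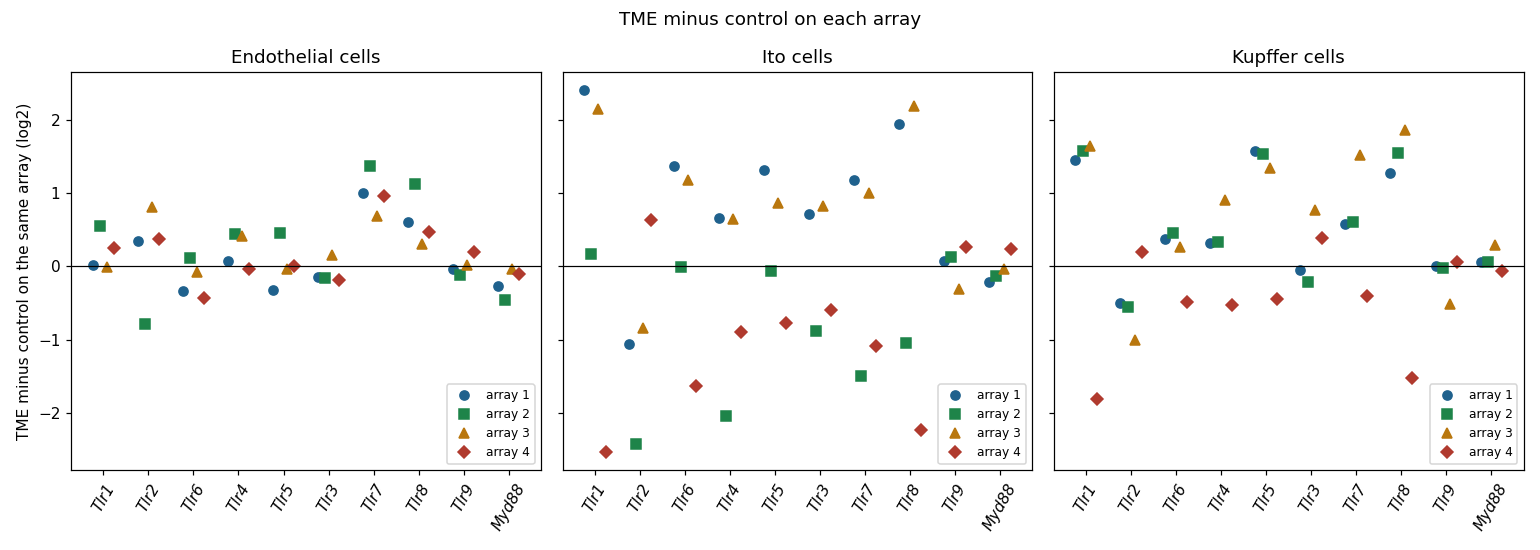
TME minus control log2 difference (vertical axis) on each of the 4 arrays for each gene (horizontal axis), in endothelial, Ito and Kupffer cells, with diamonds for array 4. *Tlr7* and *Tlr8* sit above 0 on all 4 endothelial arrays, whereas array 4 lies opposite to arrays 1 and 3 for *Tlr1* and *Tlr8* in Ito and Kupffer cells.

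The clearest differences among liver cells were in *Tlr7* and *Tlr8*, and they separated Kupffer from endothelial cells. *Tlr8* was higher in control Kupffer than in control endothelial cells by 3.29 (9.79-fold, SE 0.53, adjusted p = 4.79e-05, limma). *Tlr7* was higher by 2.44 (5.41-fold, SE 0.39, adjusted p = 4.69e-05) and *Tlr1* by 1.75 (SE 0.58, adjusted p = 0.0296). *Myd88* was higher by 0.52 (SE 0.15, adjusted p = 0.0133) and *Tlr9* by 0.40 (SE 0.11, adjusted p = 0.0092). These 5 of 10 genes were the ones called, all higher, where 21.0% of all probes were called and 8.95% were called higher. In 8 of the 10 the groups did not overlap, as in 28.4% of all probes. The *Tlr8* and *Tlr7* calls were kept in all 16 alternative settings, while 5 to 6 settings ended those of *Tlr1*, *Myd88* and *Tlr9*. The size was less fixed: over the settings *Tlr8* ran from 1.81 to 3.54 and *Tlr7* from 2.22 to 2.95. For *Tlr8*, 3 of 4 control endothelial samples were well above background. *Tlr2* was lower in Kupffer cells in every sample, by a mean of 0.81 in log2, but was not called (adjusted p = 0.52). The methods' t-test called 7 of 10 genes here, *Tlr2* among them as the only one lower. The share of all probes called by that test is not given here, so its count has no background beside it.

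In TME cells the same contrast called 6 of 10 genes, all higher in Kupffer cells, where 21.8% of all probes were called and 9.64% higher. They were *Tlr8* (3.46), *Tlr1* (2.26), *Tlr7* (2.01), *Tlr6* (1.10), *Tlr3* (1.06) and *Myd88* (0.83). *Tlr9*, which was called between the control groups, differed by 0.26 here (SE 0.11, adjusted p = 0.091). The methods' t-test, again without a share of all probes beside it, called 9 of 10, with *Tlr2* again the only one lower. The limma fit that left out array 4 of the Ito and Kupffer cells called 6 of 10, beside 21.7% of all probes. Without array 4 of the Ito and Kupffer cells, 4 of 10 genes were called between control Kupffer and control endothelial cells, beside 20.4% of all probes, and with the dim channels also left out 6 were, beside 22.9%.

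Endothelial and Ito cells were on one slide with the same dye per condition. Here *Tlr7* was lower in control endothelial cells than in control Ito cells by 1.86 in log2 (3.62-fold, SE 0.39, adjusted p = 0.0023) and *Tlr8* by 1.79 (3.45-fold, SE 0.53, adjusted p = 0.0313). These 2 of 10 genes compare with 9.89% of all probes called and 4.17% called lower. The second *Tlr8* probe fell short of the threshold (adjusted p = 0.186), and so did both other *Tlr7* probes (0.0696 and 0.067). Of 16 alternative settings, 11 ended the *Tlr8* call and 2 the *Tlr7* call. The *Tlr8* difference ranged from -2.09 to -0.82 over the settings. Between the TME groups of these cells 0 of 10 genes were called, with 8.26% of all probes called. Without array 4 of the Ito and Kupffer cells, *Tlr7* alone was called between the control groups and *Tlr8* and *Tlr1* between the TME groups, with 11.7% and 8.63% of all probes called.

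Control Kupffer cells were higher than control Ito cells in *Tlr6* by 1.13 (SE 0.32, adjusted p = 0.0156), in *Tlr3* by 0.97 (SE 0.31, adjusted p = 0.0333) and in *Myd88* by 0.46 (SE 0.15, adjusted p = 0.0413). These were 3 of 10 genes, with 14.8% of all probes called and 7.24% called higher. Of the 3, the groups overlapped in *Tlr6* and *Tlr3*, through Ito replicate 4 in *Tlr6*, and not in *Myd88*. TME Kupffer cells were higher than TME Ito cells in 5 of 10 genes, *Tlr8* (2.08), *Tlr7* (1.26), *Tlr3* (1.18), *Tlr6* (1.06) and *Myd88* (0.58), with 15.2% of all probes called and 7.74% higher. The counts were 4 and 5 when array 4 of these cells was left out, beside 14.1% and 13.1% of all probes. The 5 calls between the TME groups fell to 0 without replicate 2 and to 1 by the methods' t-test. The share of all probes called in either setting is not given here, so these counts have no background beside them. With array 4 and the dim channels left out, the calls fell to 2 (14.5% of all probes). Both contrasts also set one slide against the other, and each of the 3 calls between the control groups was lost in 6 or 7 of 16 alternative settings.

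**Figure D3:**
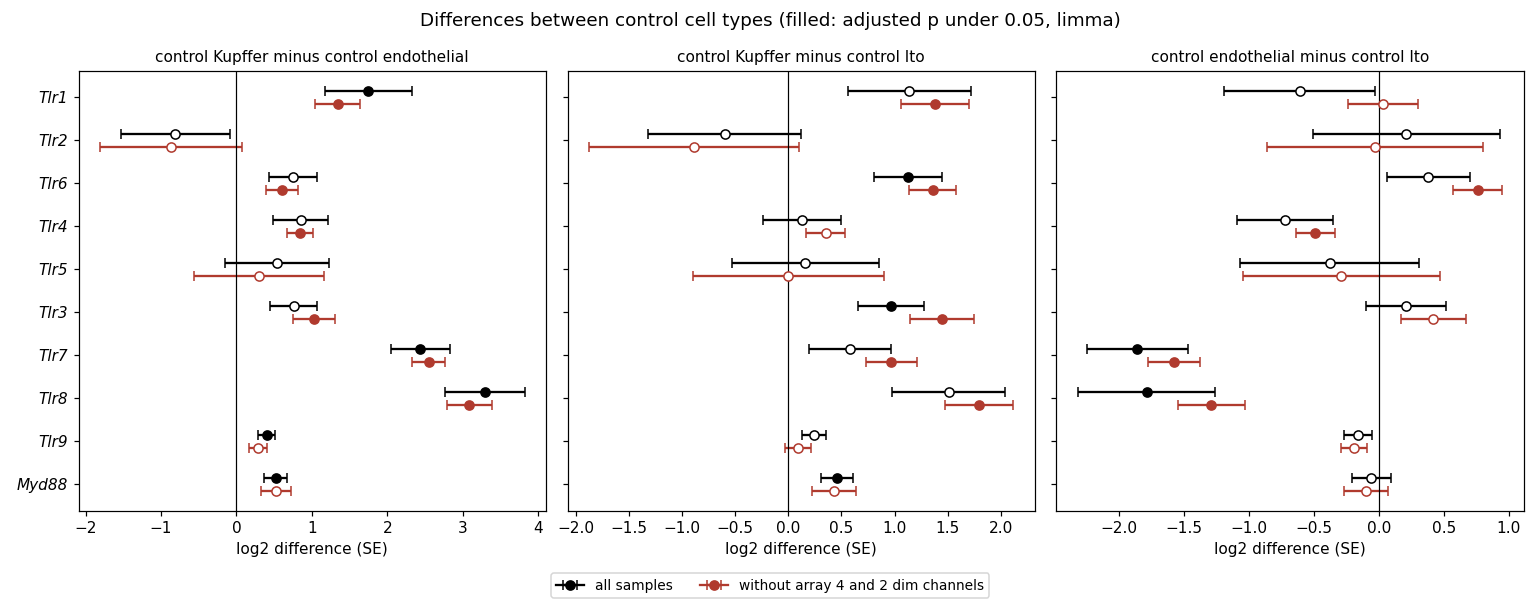
Log2 difference between control cell types (horizontal axis) for each gene, with standard errors as bars and filled points for an adjusted p under 0.05, with all samples (black) and without array 4 of the Ito and Kupffer cells and both dim channels (red). *Tlr7* and *Tlr8* stand farthest from 0 in the Kupffer minus endothelial and the endothelial minus Ito panels.

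Across the 24 liver samples, the level of each gene was also set beside the mean of the Kupffer marker list, as a description, since the samples share arrays, slides and the 6 groups. Pearson's r was 0.97 for *Tlr7*, 0.96 for *Tlr8*, 0.92 for *Tlr1* and 0.88 for *Tlr4*. It was 0.76 for *Tlr3*, 0.75 for *Tlr6*, 0.65 for *Myd88* and 0.35 for *Tlr9*. *Tlr2* ran the other way (r = -0.54) and followed the endothelial marker list instead (r = 0.84). Samples of the Ito groups fell on both sides: TME Ito replicate 2 had the lowest Kupffer marker level of all liver samples, 11.2, and also low *Tlr7* (9.25), *Tlr4* (9.67) and *Tlr3* (8.65). Control Ito replicate 4 had a marker level of 14.5 and *Tlr1* at 10.52. TME Ito replicate 2 also had the highest neutrophil (8.89) and epithelial (9.12) marker levels of all liver samples. Set beside the monocyte list, r was 0.82 for *Tlr1*, 0.77 for *Tlr8*, 0.74 for *Tlr7* and -0.73 for *Tlr2*. In the other genes it ran from 0.09 (*Tlr9*) to 0.70 (*Tlr5*). How far the content of Kupffer or other cells sets the receptor levels of the endothelial and Ito samples was not tested.

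**Figure D4:**
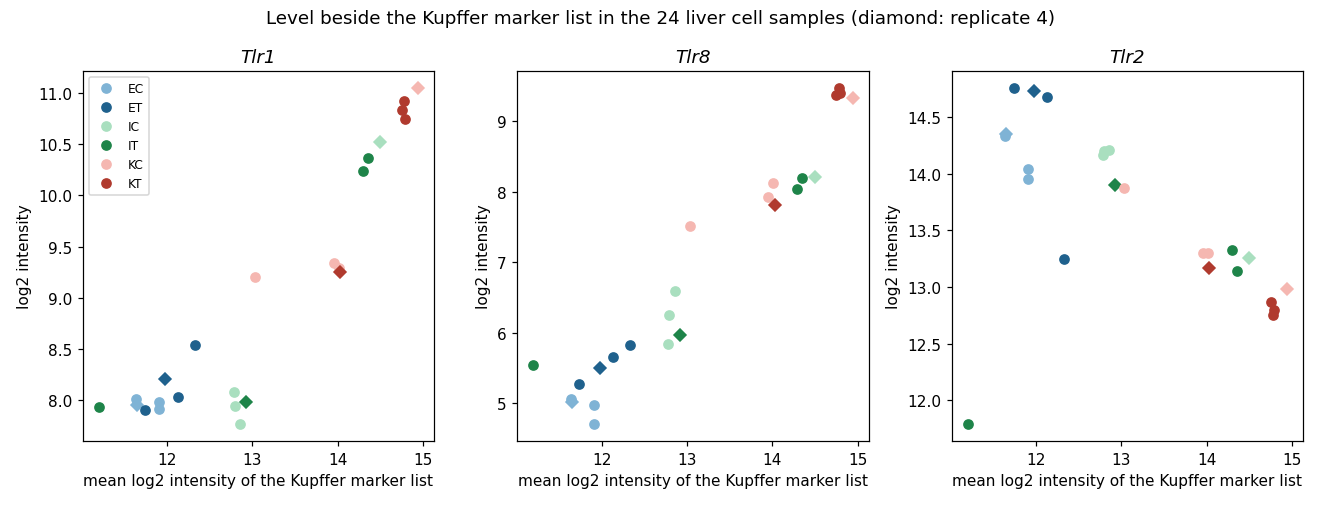
Log2 intensity of *Tlr1*, *Tlr8* and *Tlr2* (vertical axis) against the mean log2 intensity of the 10 Kupffer markers (horizontal axis) in the 24 liver samples, with diamonds for replicate 4. *Tlr1* and *Tlr8* rise with the list (r = 0.92 and 0.96) and *Tlr2* falls (r = -0.54).

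The genes whose pattern was most like that of each receptor were sought by Pearson's r over the 32 samples among 14115 genes. For *Tlr3* they were *Samhd1* (0.99), *Il15* (0.986) and *Parp11*, and *Parp11* (0.989) was also first for *Tlr6*. For *Tlr7* the first was *Cd300a* (0.977), for *Tlr8* *Cln8* (0.977), for *Tlr1* *Clec4a1* (0.979), for *Tlr2* *Arrdc4* (0.986), for *Tlr4* *Dram2* (0.968), for *Tlr9* *Zswim4* (0.934) and for *Myd88* *Gm6034* (0.99). The 8 tumor samples, low in most of these genes, enter these correlations, and the samples share arrays and slides. Over the 24 liver samples alone, a choice made after the data were seen, *Tlr7* was most like *Gp49a* (0.986), *Ptprc* (0.985), which encodes the pan-leukocyte protein CD45, and *Ms4a6d* (0.984). The genes named for *Tlr8* are *Cd72* (0.987) and *Fcgr1* (0.987), which encodes a high-affinity IgG receptor.

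Promoter sequence is shown for 3 genes that stand for the range of the patterns: *Tlr8*, high in Kupffer cells, *Tlr9*, nearly level over all groups, and *Myd88*, the adaptor. Each is the 250 bases before the start of the gene, from RefSeq (GRCm38.p6), 5′ to 3′ on the strand of the gene. *Tlr8* is at chrX:167264330-167264579 (minus), *Tlr9* at chr9:106222348-106222597 (plus) and *Myd88* at chr9:119340019-119340268 (minus). Capitals mark matches on either strand to GAGGAA, the core bound by PU.1, a factor of myeloid cells.
*Tlr8*: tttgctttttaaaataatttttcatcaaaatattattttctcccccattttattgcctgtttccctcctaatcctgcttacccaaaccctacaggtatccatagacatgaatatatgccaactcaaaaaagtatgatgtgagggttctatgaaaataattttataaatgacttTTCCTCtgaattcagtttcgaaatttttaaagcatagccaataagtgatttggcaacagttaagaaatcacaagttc
*Tlr9*: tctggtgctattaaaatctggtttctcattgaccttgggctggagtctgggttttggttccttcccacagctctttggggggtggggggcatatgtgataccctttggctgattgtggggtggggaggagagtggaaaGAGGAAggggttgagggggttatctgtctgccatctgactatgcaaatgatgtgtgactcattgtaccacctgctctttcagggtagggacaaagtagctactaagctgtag
*Myd88*: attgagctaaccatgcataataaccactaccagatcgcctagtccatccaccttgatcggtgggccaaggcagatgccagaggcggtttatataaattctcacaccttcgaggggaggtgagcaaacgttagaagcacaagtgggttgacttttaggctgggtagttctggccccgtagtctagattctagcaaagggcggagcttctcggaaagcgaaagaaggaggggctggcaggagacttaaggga

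Promoter entries were found for 8 of the 10 genes, and *Tlr1* and *Tlr6* had more than one, 10 entries in all. The motif was in 3 of these 10 entries, of *Tlr1*, *Tlr8* and *Tlr9*, and in 23.3% of all 32851 entries. It occurs in *Tlr8* and in *Tlr9* alike, although their levels differ in pattern, and not in this window of *Myd88*. A match describes the letters in these windows only.

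In the tumor cells 9 of the 10 genes were lower than in Kupffer cells, with which they share the slide and, per condition, the dye. Metastasis cells were set against control Kupffer cells, where 39.4% of all probes were called and 16.2% were called lower, and primary cells against TME Kupffer cells, where 43.6% were called and 17.8% lower. In both, the 9 genes called were every one but *Tlr5*. *Tlr2* was lower by 8.36 in metastasis and 7.66 in primary cells in log2 (SE 0.72 each, adjusted p = 1.93e-10 and 8.57e-10, limma). *Tlr1* was lower by 5.18 and 5.36 (SE 0.58, adjusted p = 2.14e-08 and 1.02e-08), *Tlr3* by 4.59 and 5.04 (SE 0.31, adjusted p = 1.64e-12 and 2.25e-13) and *Tlr6* by 4.01 and 4.32 (SE 0.32, adjusted p = 4.07e-11 and 8.29e-12). Of 8 tumor samples, 4 for *Tlr1* and 5 for *Tlr2* were well above background. Over 16 alternative settings the *Tlr2* difference in metastasis cells ranged from -9.18 to -6.54.

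*Tlr8* has only a bound in the tumor cells, since no tumor sample was well above background. Control Kupffer cells had at least 4.21-fold more signal than metastasis cells. For TME Kupffer against primary cells the bound was at least 5.54-fold. Neither bound was tested. The main fit gave measured differences of -5.18 in metastasis cells (adjusted p = 5.39e-09, limma) and -5.91 in primary cells (adjusted p = 4.05e-10, limma). Both rest on tumor values not well above background. The bound sets the mean of the Kupffer samples against the lowest signal well above background on each tumor array, or the probe's own signal where that was higher, on values normalized within and between the arrays. The groups set against each other in a bound carried the same dye. The normalization within arrays ties each sample to the one in the other dye on its array, and no dyes were swapped.

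Of the genes well above background in every tumor sample, *Tlr6* had the largest difference, given above. *Myd88* was 6.95-fold lower in metastasis cells (2.80 in log2, SE 0.15, adjusted p = 2.32e-14) and 7.16-fold lower in primary cells. *Tlr7* was lower by 2.99 and 3.60 with the probe used, and by 6.66 and 5.96 with the probe 283 bases away, which was well above background in 5 of 8 tumor samples, so its size is uncertain there. *Tlr4* was lower by 1.65 and 1.85 and *Tlr9* by 0.61 and 0.52, the smallest of the called differences. The second *Tlr4* probe was not well above background in any tumor sample. *Tlr5* was not called in either comparison (1.16 and 1.38, SE 0.69 each, adjusted p = 0.204 and 0.113). Its control Kupffer samples were all at background and 2 of 4 samples in each tumor group were well above it. The methods' t-test called it for primary against TME Kupffer cells, higher in the primary cells.

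Between the tumors, primary minus metastasis cells, 0 of 10 genes were called, against 3.01% of all probes, and 0 had an unadjusted p under 0.05. The differences ran from -0.22 in *Tlr3* to 1.22 in *Tlr5* (SE 0.69, adjusted p = 0.399). The tumor groups overlapped in every gene, whereas 10.6% of all probes had no overlap. In metastasis cells the SD was 2.19 for *Tlr2* and 2.22 for *Tlr5*, against 0.59 for *Tlr8* and 0.13 for *Tlr9*. Replicates 1 and 4 there read 7.43 and 6.28 for *Tlr2*, and replicates 2 and 3 read 3.27 and 3.04. For *Tlr5* these were 5.75 and 6.08 against 2.1 and 2.06, and for the Kupffer marker list 6.05 and 6.16 against 4.2 and 3.61. Arrays 1 and 4 of the tumor group had also stood apart from arrays 2 and 3. The cause of the split was not tested. Leaving out array 4 of the Ito and Kupffer cells left 9 of 10 genes called in both comparisons with Kupffer cells, beside 38.2% and 41.7% of all probes.

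**Figure D5:**
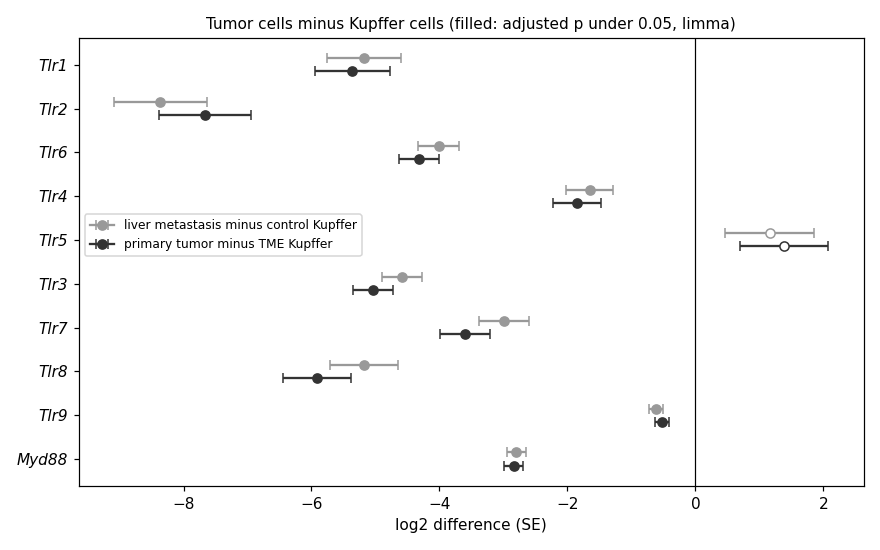
Log2 difference of tumor cells from Kupffer cells (horizontal axis) for each gene, metastasis minus control Kupffer and primary minus TME Kupffer cells, with standard errors as bars. Values lie below 0 for every gene but *Tlr5*, and *Tlr8* rests on tumor values not well above background.

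Other genes of the pathway were read from lists of 76 genes, of which 75 were on the array: other murine receptors, co-receptors, adaptors and kinases, transcription factors, negative regulators and induced targets. Between TME and control cells, 1 of 75 was called in endothelial cells and 0 in Ito and 0 in Kupffer cells, where 1.14%, 0.289% and 0.436% of all probes were, so the count is near the background. It was *Tlr12*, which encodes a receptor for profilin of protozoan parasites. It read 8.65, 8.55, 8.66 and 8.6 in control and 6.96, 6.76, 6.8 and 6.81 in TME endothelial samples, which did not overlap. It was lower in TME by 1.78 in log2 (SE 0.18, adjusted p = 6.2e-07). Its change in Ito cells was 2.23 above that in endothelial cells (SE 0.25, adjusted p = 4.75e-05) and its change in Kupffer cells 1.53 above (SE 0.25, adjusted p = 0.00615). *Tlr12* was the only listed gene with such a call, and it moved opposite to the values of *Tlr7* and *Tlr8*.

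Control Kupffer against control endothelial cells called 31 of 75 listed genes, 28 higher and 3 lower, where 21.0% of all probes were called and 8.95% higher. Of the 21 induced targets, 13 were higher and 0 lower, with a median difference of 2.18 over the 21. They included the chemokine genes *Ccl3* (3.75) and *Ccl4* (3.46), the anti-inflammatory cytokine gene *Il10* (3.62) and *Ptgs2* (2.94), the inducible cyclooxygenase. The co-receptor gene *Cd14* was higher by 3.65, *Cd180*, a receptor homologue, by 3.00, and the signalling genes *Pik3ap1* and *Btk* by 3.39 and 3.19. Control Kupffer against control Ito cells called 22 of 75, 16 higher and 6 lower (14.8% of all probes called, 7.24% higher), led by *Il10* (2.96), *Socs1* (2.32) and *Nos2* (2.26), and with *Cxcl2* lower (-2.20). Control endothelial against control Ito cells, on one slide, called 15 of 75, 4 higher and 11 lower (9.89% of all probes called, 4.17% lower), led by *Ptgs2* (-3.61), *Cd14* (-3.27), *Cxcl2* (-2.69) and *Ccl3* (-2.43), with *Socs1* (1.65) and *Tlr12* (1.46) higher.

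In metastasis against control Kupffer cells 62 of 75 were called, 57 of them lower, where 39.4% of all probes were called and 16.2% lower. In primary against TME Kupffer cells 61 were called, of which 57 were lower, where 43.6% of all probes were called and 17.8% lower. All 19 called of the 21 induced targets were lower in each. The 5 genes higher in metastasis cells were *Sigirr* (5.66), which encodes an inhibitor of receptor signalling, *Tab1* (1.15), *Irak1* (0.93), *Hsp90b1* (0.68), which encodes the chaperone of the receptors, and *Irf3* (0.43), all named after their values were seen. Without array 4 of the Ito and Kupffer cells, 14 of 75 listed genes were called between TME and control Ito cells, 4 higher and 10 lower, and 2 of 75 in Kupffer cells, both lower (7.66% and 3.85% of all probes). The higher ones in Ito cells were *Tab1* (1.12), *Cd180* (1.11), *Sigirr* (0.81) and *Tlr12* (0.76), and those in Kupffer cells *Tlr11* (-0.96), which no Kupffer sample had well above background, and *Tlr12* (-0.52). The lower ones in Ito cells were *Cxcl2* (-3.51) and the NF-kB inhibitors and feedback genes *Nfkbiz* (-1.75), *Tnip1* (-1.53), *Tnfaip3* (-1.43) and *Nfkbia* (-0.99), beside *Cd14* (-1.21), *Rel* (-1.10), *Nfkb1* (-1.07), *Tab2* (-0.98) and *Traf3* (-0.80), whereas *Tlr1* was higher under the same setting.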

How the data were processed

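The 32 RNA samples were hybridised in pairs to 16 2-colour Agilent arrays on 2 slides and read by Feature Extraction 10.7.3.1, whose probe positions are on mm9. Per the file headers, the scanner files hold intensity values for each spot, background-corrected and dye-normalized (processed signal) and raw. The authors deposited a table of normalized linear intensity, 1 column per sample, which followed the quantile-normalized processed signal (correlation 1 on the log2 scale). It was taken to log2 here. Spots well above background made up 43.8 to 57.1% of 59305 non-control spots in liver channels and 38.4 to 50.3% in tumor channels, and 0 were saturated. The number of arrays limits the precision.

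All 32 samples were fitted to 8 groups with limma 3.58.1 (lmFit and eBayes, R 4.3.3), with Benjamini-Hochberg adjustment over all 55681 probes and calls at an adjusted p under 0.05. A gene with several probes was read from the one well above background on most channels, ties going to the highest mean. An adjusted p without another name comes from this fit. The exact permutation tests were two-sided, over the samples of both groups. No table of these fits was filtered, so all 10 genes were tested in each comparison. The 10 genes, the pathway and marker lists and the tests were chosen with earlier results of these data known. Named pathway genes are those called between conditions, and otherwise up to 8 called genes with the largest difference between control cell types. Alternatives were the scanner signals with other background correction and normalization, a filter on dim probes, other probes, blocks, the methods' t-test and threshold, and samples left out. The fits were tested on simulated data first, with known changes put into the TME Kupffer samples. Against control Kupffer samples, 31.3% of changes of 1 in log2 were called, 82.1% of changes of 2 and 95.5% of changes of 4. A count of 0 called genes therefore does not show that no gene changed. One gene among those most like a receptor is not reported here.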

Additional observations from a re-analysis of the deposited data

Results flagged for a closer look

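In 15 of 80 sets of 4 samples (18.8%), 1 sample stood far from the other 3. For independent sets chance gives about 1 in 20. The 10 genes were read on the same 32 samples, so the sets are not independent and the share was not tested against chance. Replicate 4 of the control Ito group was high in *Tlr1* (10.52, others 7.77 to 8.08), *Tlr6* (11.58, others 9.99 to 10.16), *Tlr7* (11.84, others 10.72 to 10.75) and *Tlr4* (12.62, others 11.71 to 11.78), and low in *Tlr2* (13.26, others 14.17 to 14.21). Replicate 4 of the control Kupffer group was high in *Tlr1* (11.05, others 9.2 to 9.34) and *Tlr6* (11.96, others 11.43 to 11.5). Replicate 4 of the TME Kupffer group was low in *Tlr1* (9.25, others 10.74 to 10.92), *Tlr7* (11.83, others 12.25 to 12.3) and *Tlr8* (7.81, others 9.38 to 9.48). Replicate 2 of the TME endothelial group was low in *Tlr2* (13.25, others 14.68 to 14.76) and *Myd88* (12.06, others 12.52 to 12.6). It stood apart in *Tlr5* as well (2.95, others 2.11 to 2.14), where no sample of the group was well above background. Control Kupffer replicate 3 was high in *Tlr9* (10.94, others 10.5 to 10.53), and primary tumor replicate 2 was low in *Tlr1* (4.31, others 5.26 to 5.42) and not well above background.

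The change of *Tlr12* between TME and control cells differed between cell types: on the log2 scale it lay 2.23 above the endothelial change in Ito cells and 1.53 above it in Kupffer cells (adjusted p = 4.75e-05 and 0.00615, limma).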

How the results depend on the processing

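Of 39 differences called among the 10 genes, 16 alternatives gave 624 values: 533 kept the call, 91 lost it and 0 reversed. The share of all probes called moved with the setting too. For TME against control Ito cells it was 0.289% in the main fit, 7.66% without array 4 and 12.3% without the dim channels as well. Counts in this section stand without such shares. They cannot separate a change in these genes from a change in calling over all probes. The 9 genes lower in each tumor group kept that count in every leave-one-out fit. The methods' t-test gave 1 gene called for TME against control endothelial cells, 1 for Kupffer against Ito cells (control and TME) and 1 for control endothelial against control Ito cells. It called 7 for control and 9 for TME Kupffer against endothelial cells, 1 of them lower in each, and 10 for primary against TME Kupffer cells, 1 higher. It called 14 pathway genes for control Kupffer against Ito cells. With only the groups compared in the fit, these 4 comparisons gave 2, 1, 1 and 1 genes, control Kupffer against endothelial cells gave 8, and the pathway lists gave 7 for TME against control endothelial and 24 for control endothelial against Ito cells. Normexp with quantile normalization gave 1 gene for endothelial against Ito cells (control and TME) and 25 pathway genes for the control pair. Normexp with loess gave 1, 1 and 24 for these, and 5 genes for control Kupffer against Ito cells.

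Without array 4 of the Ito and Kupffer cells (chosen after the data were seen), the counts of genes were 1 for TME against control Ito, 1 for Kupffer, 1 for control and 2 for TME endothelial against Ito cells, and 14 and 2 pathway genes for TME against control Ito and Kupffer cells. Leaving out both dim channels too gave 1 gene for TME against control endothelial, 5 for Ito and 2 for Kupffer cells, 5 for control and 2 for TME Kupffer against Ito cells, 4 for control and 5 for TME endothelial against Ito cells, and 2 whose change differed between Ito and endothelial cells (*Tlr1*, 2.16, and *Tlr6*, 1.5). The pathway counts were then 6 for endothelial, 20 for Ito, 3 for Kupffer, 2 for the tumors and 27 for control endothelial against Ito cells.

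At an adjusted p under 0.001 and 4-fold, 2 genes were called for Kupffer against endothelial cells (control and TME), 0 for Kupffer against Ito cells (control and TME) and 0 for control endothelial against Ito cells. The pathway counts were 0 for TME against control endothelial cells, 13 for control Kupffer against endothelial, 3 for control Kupffer against Ito and 2 for control endothelial against Ito cells. With the probe of highest variance, control endothelial against Ito cells gave 0 genes and the tumors 1 pathway gene. A filter on dim probes gave 2 pathway genes for TME against control endothelial cells, and the array as a random block 1 for the tumors.

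Leaving out each replicate number in turn gave 0 to 1 genes for TME against control Ito, 2 to 4 for control Kupffer against endothelial, 0 to 2 for control Kupffer against Ito, 1 in each fit for control endothelial against Ito, 3 to 6 for TME Kupffer against endothelial, 0 to 5 for TME Kupffer against Ito and 0 to 1 for TME endothelial against Ito cells. The pathway counts were 0 to 13 for TME against control Ito cells, 0 to 3 for the tumors, 9 to 21 for control Kupffer against Ito and 7 to 16 for control endothelial against Ito cells. Replicate 4 gave the single Ito call when left out (*Tlr1*, 1.58, adjusted p = 0.0425, limma), and without replicate 2 the TME Kupffer against Ito cells had 0. Same-numbered samples shared an array, but their deviations correlated above 0.1 in only some of the pairs, so the numbers were not taken as pairs. The correlations were 0.40, 0.34, 0.05 and 0.19 in endothelial cells, where 3 of 4 samples matched their own number best, and -0.64 to 0.23 in the other sets. With the replicate number as a block, 0 of 10 genes were called in each of the 4 comparisons on shared arrays, and 1, 0, 0 and 0 pathway genes in endothelial, Ito, Kupffer and tumor cells.

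Low signal limits *Tlr5* in all groups, *Tlr1*, *Tlr2* and *Tlr8* in the tumors, and *Tlr8* in control endothelial cells. Measured differences there depend on the normalization. *Tlr8* in metastasis against control Kupffer cells ranged from -5.51 to -2.13, and in control Kupffer against control endothelial cells from 1.81 to 3.54. The cause of the other changes was not tested.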
